A study of Homo sapiens with 18 samples.

Results

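Transfer RNA (tRNA) copies are the repeat entries whose name begins with tRNA-, and they were taken from both deposited tables by that name alone. The 5-FU table listed 871 such copies among 2404193 repeat copies, and the Nutlin table listed 655 among 1996647. The copies carried 61 and 60 names, and 627 copies appeared in both tables. The chromosome 6 cluster (26 to 29 Mb, whole copy inside) held 162 of the copies listed for 5-FU, with 709 elsewhere, and 147 of those listed for Nutlin, with 508 elsewhere. Positions are those of the tables, on hg19, the build named in the submitters' processing notes.

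Transfer RNAs bring amino acids to the ribosome and pair with the codons of a messenger RNA. Their genes are short, exist in many near-identical copies, and are transcribed by RNA polymerase III from a promoter inside the gene. The transcript is trimmed at both ends and heavily modified, and the largest gathering of human tRNA genes lies on the short arm of chromosome 6, beside a histone gene cluster.

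The study treated IMR90 cells, an established line of human lung fibroblasts labelled wildtype, and sequenced total RNA with a stranded kit after an extraction protocol that also recovers miRNA. Nutlin, which blocks the binding of MDM2 to p53, was given at 5 µM for 6 h. The antimetabolite 5-fluorouracil (5-FU) was given at 375 µM, and cells were taken after 6, 12 or 24 h. A DMSO vehicle group, matched in volume, stood beside every drug group at its own time, and an untreated group had a medium change 12 h before extraction. The tables list repeats only, so marker genes of fibroblasts were not analysed here. All 9 groups had 2 libraries, and nothing in the labels says that these came from separate cultures, so p-values measure only the spread between these libraries.

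The tRNA copies made up a small share of all counts, 0.0931% to 0.196% per library with 5-FU and its controls and 0.0237% to 0.0399% in the Nutlin table. Totals per library ranged from 2412334 to 6290320 in the former and from 9109885 to 11880265 in the latter. The DMSO 12 h libraries stood apart. They had the lowest totals (2412334 and 2540089), and 7SL RNA, another RNA polymerase III transcript, stood at 94556 and 121736 CPM there (counts scaled to the library total after TMM correction, used throughout) against 34777 to 47836 in the other DMSO libraries. The Nutlin table lists its untreated sample as a pair of identical columns, which entered as 1 library, and no level was compared between the tables. In that library 7SL RNA alone held 5964322 of the 9669973 counts, and it stood at 556671 to 755069 CPM across the Nutlin table. The tRNA shares and totals of the tables are therefore not comparable. In RNA from whole cultures, fewer cells of a kind and less RNA per cell cannot be told apart.

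The triplet in a name was read against the genetic code. In all 57 names that hold a triplet it gave the named amino acid when read as a codon, and in 0 when read as an anticodon, so the triplets are codons. Y in a name stands for C or T, and what a trailing _ marks is not given in the sources used here. Of the 871 copies of the 5-FU table, 693 had at least 1 count and 154 passed the filter on low counts. These 154 held 92.6% of the tRNA counts. For Nutlin 457 copies had a count and 47 passed. A copy that passed through its level in 1 group only had to differ, so counts over the tested copies describe those copies and not all members.

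Levels were uneven. The 6 copies with the highest mean held 36.2% of the tRNA counts with 5-FU and its controls, and the corresponding 6 held 33.1% in the Nutlin table. In both tables the highest was an alanine copy in the cluster, tRNA-Ala-GCA at chr6:28770577-28770647, with a mean of 215 CPM over the 5-FU table. It was followed there by tRNA-Ser-TCA(m) at chr1:567999-568065 (83.7 CPM), tRNA-Tyr-TAC at chr8:67025602-67025694 (66.3 CPM) and tRNA-His-CAY_ at chr15:45492611-45492682 (58.4 CPM). Next came the leucine copy tRNA-Leu-TTA at chr6:27198334-27198416 (48.4 CPM) and the glutamine copy tRNA-Gln-CAA at chr6:27759136-27759206 (43.9 CPM), both in the cluster. Their lengths were 67 to 93 bases.

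Summed over all 871 copies, tRNA stood at 1906 and 1987 CPM after 12 h of 5-FU and at 2284 and 1843 CPM after 24 h. These 4 libraries were above all 10 others of the 5-FU table. DMSO gave 1464 and 1344 CPM after 6 h, 833 and 1001 CPM after 12 h, then 1397 and 1286 CPM after 24 h. The untreated libraries had 950.2 and 957 CPM. The DMSO 12 h libraries were thus at the level of the untreated ones and below the other DMSO libraries. After 6 h of 5-FU the sum was 1324 and 1485 CPM, which overlapped its DMSO.

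In the cluster the sum was 978 and 981 CPM after 12 h of 5-FU against 329.9 and 443 in its DMSO, a log2 ratio of the means of 1.34. Against the DMSO libraries of 6 h and 24 h (mean 640.5 ± 77.1 CPM, SD, n = 4) the ratio was 0.61. Outside the cluster 927 and 1006 CPM faced 503 and 558, a log2 ratio of 0.87, or 0.40 against the other DMSO libraries. At 24 h the cluster held 1160.3 and 865 CPM against 618 and 559.8 (log2 ratio 0.78), and the copies elsewhere held 1123 and 977 CPM against 779 and 726 (0.48). In each of these 4 comparisons drug and DMSO libraries did not overlap, and the ratio was larger in the cluster than outside. The difference between the cluster and the rest was not tested. These sums carry no test across libraries, because the members were grouped with earlier results known.

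**Figure D1:**
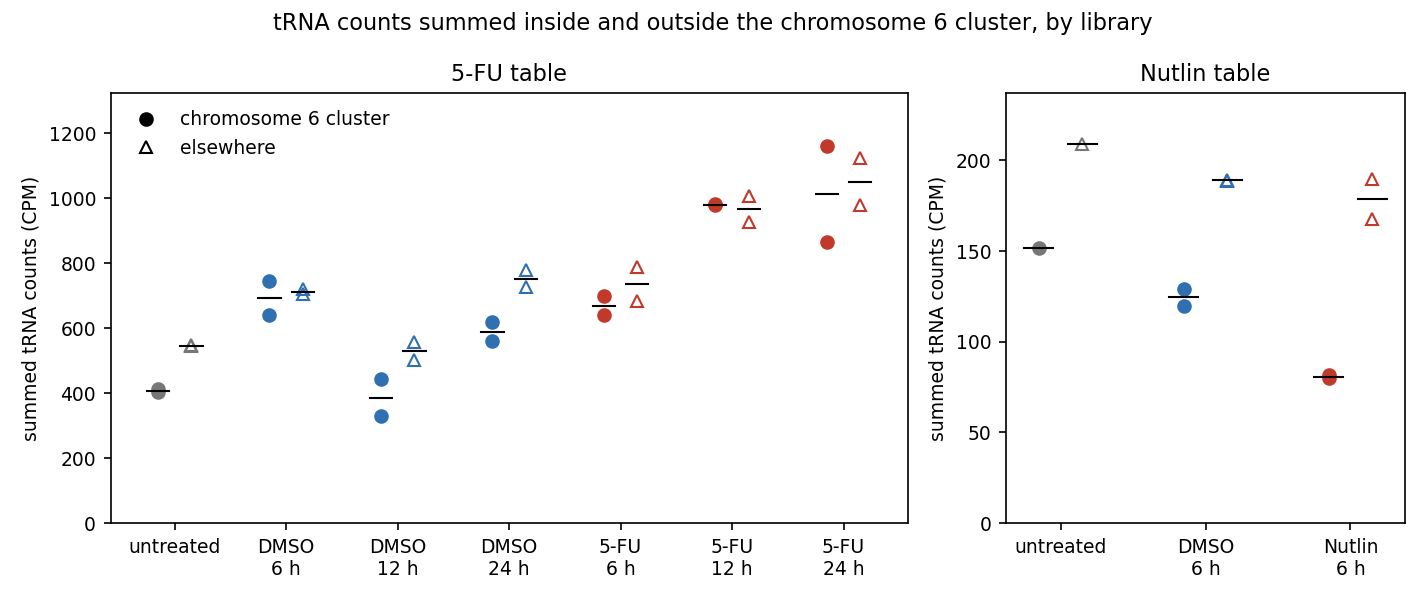
Summed tRNA counts per library (CPM of the TMM-scaled library, linear axis from 0) for the chromosome 6 cluster (filled circles) and for copies elsewhere (open triangles), by group, in the 5-FU table (left) and the Nutlin table (right, own axis). Bars are group means. The 5-FU 12 h and 24 h libraries lie above every other library of their table. The DMSO 12 h cluster sums (329.9 and 443 CPM) lie beside the untreated ones (402 and 412). After Nutlin the cluster sum is below its DMSO and the sum elsewhere overlaps it. Without 2 chromosome 1 copies (not drawn) the sum elsewhere is also below its DMSO.

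After 6 h of 5-FU no tRNA change was called with all libraries of the table in the fit. By edgeR's quasi-likelihood test 0 of 154 copies and 0 of 56 names reached an adjusted p of 0.05, where 0.101% of all repeat copies (0.0896% higher, 0.011% lower) and 0% of all repeat names did. At an unadjusted p under 0.05 there were 20 copies and 10 names, and DESeq2 called 0 copies and 0 names. With only the 6 h libraries in the fit 1 copy and 9 of 54 names were called (5 names higher, 4 lower), where 204 of all 1063 repeat names were, and without the filter 3 copies were called. The median log2 fold change of the tested copies was -0.07, beside -0.00 over all 63602 tested copies. The most abundant copy, tRNA-Ala-GCA at chr6:28770577-28770647, stood at 172 and 179 CPM against 271 and 234 in DMSO. Its log2 fold change was -0.52 (SE 0.21, edgeR adjusted p = 0.61).

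After 12 h of 5-FU 42 tRNA copies rose and 0 fell against the DMSO of that time. The called share was 27.3% of the 154 tested copies, where 9.71% of all repeat copies were called, 5.44% higher and 4.27% lower. The median log2 fold change was 1.13 (1.08 with copies at 0 in one group set to their bound), beside -0.04 over all tested copies. In the cluster 22 of 57 tested copies rose (median 1.47, or 1.16 with bounds), and elsewhere 20 of 97 (median 1.06, or 1.02 with bounds). Of 21 amino acid groups with a tested copy, 14 had at least 1 called copy and 20 had a positive median. All 42 had no overlap between drug and DMSO libraries. Among all tested tRNA copies 89 lay higher without overlap and 15 lower, where 27.4% and 28.4% of all repeat copies did so. With library size alone as the scaling, 34 copies rose and 4 fell, where 2056 of all 63602 repeat copies rose and 4703 fell. The median over all tested copies then moved to -0.36.

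Of the 10 copies with the smallest p, 7 lay in the cluster. Cluster copy tRNA-Gln-CAG at chr6:27263212-27263283, a carrier of glutamine, had 78.5 and 80.1 CPM after 5-FU against 4.45 and 3.44 in DMSO 12 h. The log2 fold change reached 4.32 (SE 0.32, edgeR adjusted p = 4.49e-08). Both DMSO 12 h libraries were far below the other DMSO libraries, at 25.5 to 30.9 CPM, and the untreated ones had 10.3 and 19.4. Against the DMSO libraries of 6 h and 24 h the log2 fold change was 1.46 (SE 0.20, edgeR adjusted p = 5.55e-05). The drug libraries were above every control library of the table.

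The other glutamine copy, tRNA-Gln-CAA at chr6:27759136-27759206, had 86.1 and 92.1 CPM against 8.90 and 11.1. On the log2 scale it rose by 3.15 (SE 0.27, edgeR adjusted p = 2.82e-07), or 1.47 against the DMSO libraries of 6 h and 24 h (adjusted p = 2.51e-05), which had 27.9 to 40.4 CPM. Drug and control libraries did not overlap in either comparison.

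The histidine copy tRNA-His-CAY_ at chr6:27125906-27125977 had 84.1 and 84.2 CPM against 14.1 and 12.6, with 18.4 to 31.6 in the other DMSO libraries. Its rise on the log2 scale was 2.65 (SE 0.26, edgeR adjusted p = 2.03e-06), or 1.68 against the other DMSO libraries (adjusted p = 6.90e-06). The methionine copy tRNA-Met at chr6:26701712-26701787, listed apart from the initiator kind, had 43.8 and 52.6 CPM against 6.30 and 6.50. Its log2 fold change was 2.91 (SE 0.30, edgeR adjusted p = 3.29e-06), or 1.74 (adjusted p = 1.32e-05). For both copies the 5-FU 12 h libraries were above all control libraries of the table.

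The serine copy tRNA-Ser-AGY at chr6:26305717-26305798 had 85.0 and 71.1 CPM against 10.4 and 16.8 in DMSO 12 h, with 21.5 to 27.9 in the other DMSO libraries. This was a log2 fold change of 2.52 (SE 0.28, edgeR adjusted p = 8.87e-06), or 1.69 against the other DMSO libraries. Outside the cluster, the lysine copy tRNA-Lys-AAA at chr1:204475655-204475727 had 32.9 and 34.3 CPM against 5.56 and 4.59, with 8.77 to 15.4 in the other DMSO libraries. That is a log2 fold change of 2.72 (SE 0.32, edgeR adjusted p = 1.34e-05), or 1.49. The leucine copy tRNA-Leu-TTA at chr6:27198334-27198416 had 74.1 and 71.1 CPM against 16.3 and 18.7, a log2 fold change of 2.05 (SE 0.24, edgeR adjusted p = 1.37e-05). The other DMSO libraries had 36.0 to 58.9 CPM there, and against them the log2 fold change was 0.65 (adjusted p = 0.0204). In these 3 copies too the drug libraries were above all controls.

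For the remaining 3 of the 10 copies the difference was seen against the DMSO 12 h libraries and not against the other DMSO libraries. The threonine copy tRNA-Thr-ACG at chr17:29877093-29877164 had 21.8 and 38.6 CPM after 5-FU and 4.45 and 4.21 in DMSO 12 h, but 23.7 to 32.8 in the other DMSO libraries and 25.5 and 27.5 untreated. Its log2 fold change was 2.79 (SE 0.33, edgeR adjusted p = 1.60e-05) against DMSO 12 h and 0.11 (adjusted p = 0.77) against the other DMSO libraries. Drug and other control libraries overlapped.

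The isoleucine copy tRNA-Ile-ATT at chr6:27655967-27656040 had log2 fold changes of 2.58 and 0.23 (edgeR adjusted p = 2.58e-05 and 0.51). It had 34.4 and 38.0 CPM after 5-FU, 4.45 and 7.65 in DMSO 12 h, and 26.2 to 34.0 in the other DMSO libraries, so its drug libraries lay just above these without overlap. It also rose against the untreated libraries (1.86, adjusted p = 0.00037), which the threonine copy did not (0.19, adjusted p = 0.73). The proline copy tRNA-Pro-CCA at chr14:21101165-21101237 gave 2.71 and 0.12 (edgeR adjusted p = 5.96e-05 and 0.76). It had 19.7 and 27.3 CPM after 5-FU, 4.45 and 2.68 in DMSO 12 h, and 18.0 to 27.1 in the other DMSO libraries, which the drug libraries overlapped. Like the isoleucine copy, it was called higher against the untreated libraries.

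**Figure D2:**
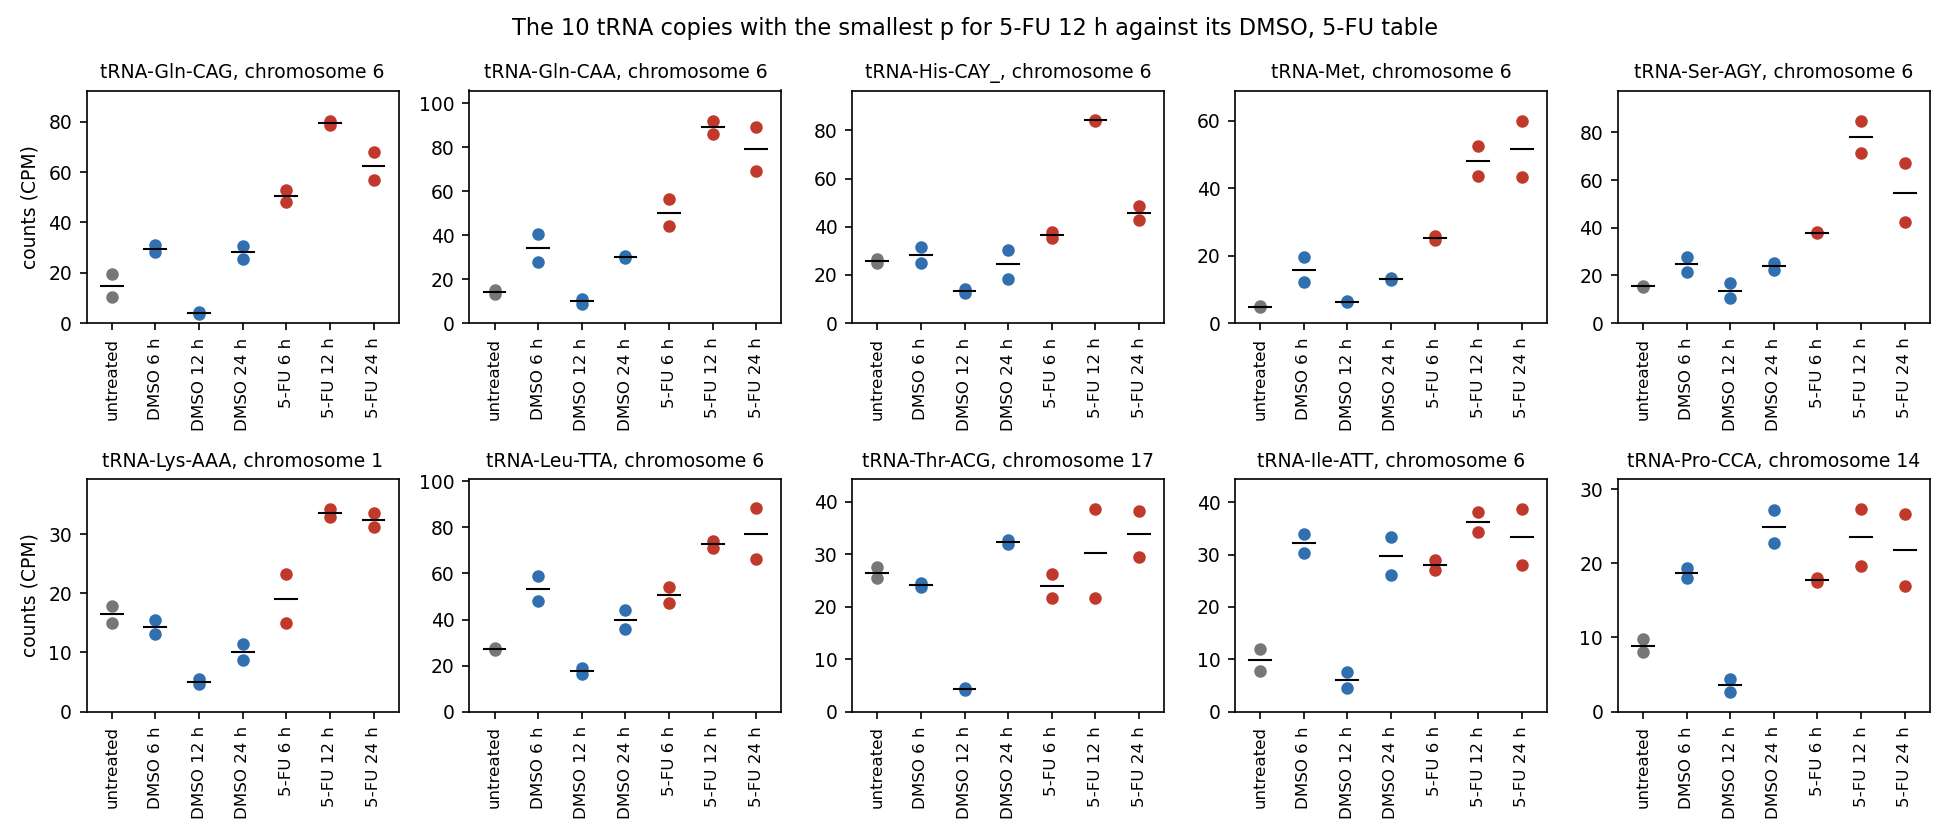
Counts per library (CPM of the TMM-scaled library, each panel with its own linear axis from 0) of the 10 tRNA copies with the smallest p at 5-FU 12 h, in the 7 groups of the 5-FU table; points are libraries (grey untreated, blue DMSO, red 5-FU) and bars are group means. In all 10 panels DMSO 12 h lies below the other DMSO groups; in tRNA-Thr-ACG and tRNA-Pro-CCA the 5-FU 12 h libraries overlap the other DMSO libraries, in tRNA-Ile-ATT they lie just above them, and in the first 7 they lie above all controls.

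The count at 12 h therefore depended on the control group. Against the DMSO libraries of 6 h and 24 h, 30 copies rose and 1 fell, where 14.7% of all repeat copies were called (8.83% higher, 5.92% lower). In the cluster 12 of 57 rose (median 0.25) and elsewhere 18 of 97 (median 0.48), so the order of the medians was the reverse of that against DMSO 12 h. Against the untreated libraries, an alternative chosen after seeing the data, 24 rose and 1 fell, where 5.8% were called (3.45% higher, 2.35% lower). These comparisons share the 5-FU 12 h libraries. Of the 42 copies, 13 were called higher against each of the 3 controls, 7 of them in the cluster, and 18 were called against DMSO 12 h alone. In 18 of the 42 both DMSO 12 h libraries had 3 counts or fewer. Without DMSO 12 h replicate 1 the count was 20 copies, of which 19 rose, and without replicate 2 it was 25.

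Of the 42 copies, 3 had 0 counts in both DMSO 12 h libraries, which gives bounds only, and 2 of them are given here, chosen after their values were seen. The cluster copy tRNA-Ala-GCY_ at chr6:28831462-28831533 had 18 and 17 counts against 0 and 0, at least 4.53-fold higher over a floor of 3 counts per library. It was not called against the DMSO libraries of 6 h and 24 h, which had 20 to 32 counts (log2 fold change 0.10, edgeR adjusted p = 0.89), or against the untreated ones (1.49, adjusted p = 0.13). Outside the cluster, tRNA-Pro-CCY at chr16:3202610-3202679 had 18 and 10 counts against 0 and 0, at least 3.63-fold higher, and was also called against the DMSO libraries of 6 h and 24 h (1.82, adjusted p = 0.0427).

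The copy that fell against both other control groups was a glycine copy, tRNA-Gly-GGA at chr1:161500903-161500974. It had 6.17 and 5.23 CPM after 12 h of 5-FU, against 7.78 and 17.6 in DMSO 12 h, 14.2 to 24.2 in the other DMSO libraries and 24.0 and 18.8 untreated. The log2 fold change was -1.15 against DMSO 12 h (edgeR adjusted p = 0.083) and -1.64 against the other DMSO libraries (adjusted p = 0.0038). At 6 h the copy had 5.57 and 12.0 CPM against 17.1 and 24.2, and at 24 h 8.57 and 9.14 against 14.2 and 16.7, neither of which passed the test (adjusted p = 0.38 and 0.25). The drug libraries were below their DMSO libraries at all 3 times.

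**Figure D3:**
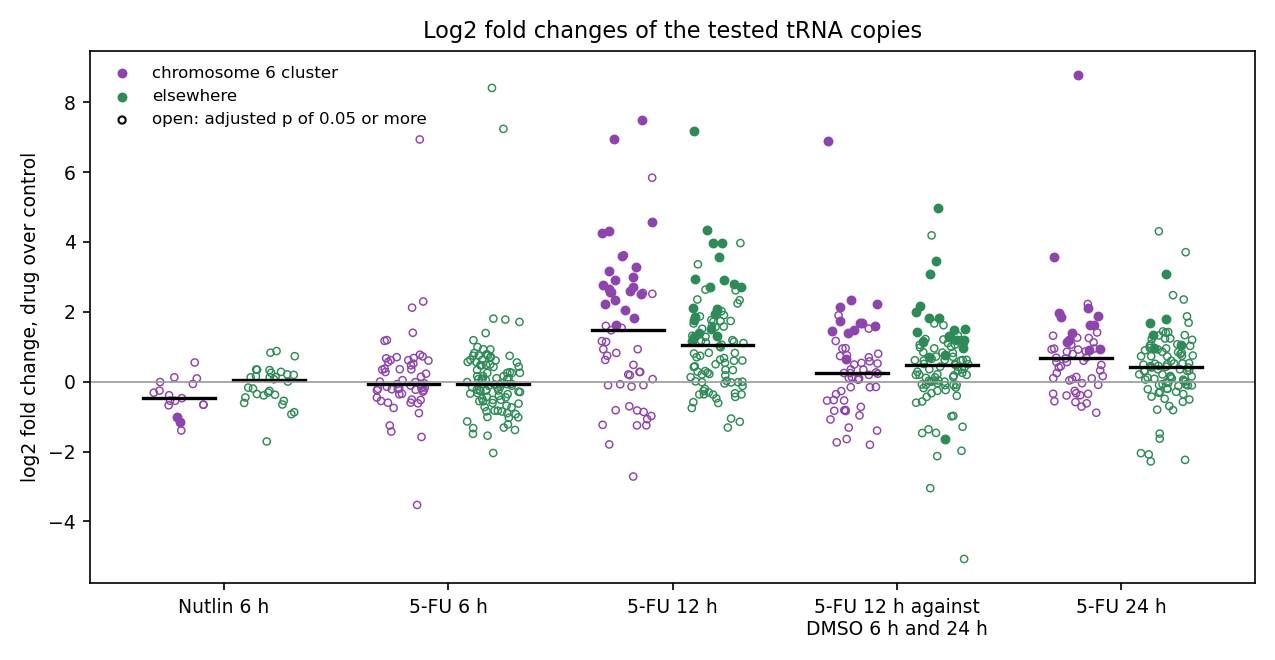
Log2 fold changes (drug over control, edgeR) of the tested tRNA copies in 5 comparisons, with cluster copies in purple and copies elsewhere in green; filled points have an adjusted p under 0.05 and bars are medians. Values above 6 belong to copies at or near 0 counts in a group and are no measure of size; after 12 h the medians are 1.47 and 1.06, against DMSO 6 h and 24 h they are 0.25 and 0.48, and in the Nutlin table both filled points lie in the cluster and below 0.

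Summed by name, 27 tRNA names rose and 1 fell at 12 h out of 56 tested, where 35.7% of all repeat names were called (16.9% higher, 18.8% lower). With library size alone 24 rose and 2 fell, where 61 of all 1078 repeat names rose and 436 fell. The smallest p belonged to glutamine names. The 32 copies of tRNA-Gln-CAG had a log2 fold change of 3.14 (SE 0.24, edgeR adjusted p = 4.26e-06), with 83.8 and 86.0 CPM against 9.64 and 9.56, and 87.7% of their counts lay in the copy at chr6:27263212-27263283. The 11 copies of tRNA-Gln-CAA had 2.32 (SE 0.21, adjusted p = 1.04e-05), with 113 and 124 CPM against 19.3 and 28.3. Histidine (tRNA-His-CAY_, 1.57), leucine (tRNA-Leu-TTA, 2.04), isoleucine (tRNA-Ile-ATT, 1.96), methionine (tRNA-Met, 2.05), serine (tRNA-Ser-AGY, 1.87) and threonine (tRNA-Thr-ACG, 2.77) followed by p. Of these, tRNA-Ile-ATT had 0.33 (adjusted p = 0.071) and tRNA-Thr-ACG 0.10 (adjusted p = 0.72) against the DMSO libraries of 6 h and 24 h. Initiator methionine, tRNA-Met-i, which starts protein chains, rose from 2.22 and 2.68 to 13.8 and 16.6 CPM (2.62, edgeR adjusted p = 0.0026). Against the DMSO libraries of 6 h and 24 h its value was 0.39 (adjusted p = 0.35). The name that fell was tRNA-Leu-TTG, at 11.8 and 10.5 CPM against 17.8 and 25.2 (-0.95, adjusted p = 0.0397). Against the other DMSO libraries, with 10.8 to 19.6 CPM, it had -0.42 (adjusted p = 0.26).

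Against the DMSO libraries of 6 h and 24 h 15 names rose and 1 fell, where 42% of all names were called (16% higher, 26.1% lower). The name that fell there was tRNA-Gly-GGA (-1.17, edgeR adjusted p = 0.0014). Against the untreated libraries 21 names rose and 1 fell, where 18.1% were called (13.1% higher, 5.01% lower). Of the 27 names, 13 rose against each of the 3 controls, among them all 3 glutamine names called at 12 h (tRNA-Gln-CAG, tRNA-Gln-CAA and tRNA-Gln-CAA_), tRNA-His-CAY_, tRNA-Leu-TTA, tRNA-Lys-AAA, tRNA-Met, tRNA-Ser-AGY and tRNA-Tyr-TAC. For tRNA-Gln-CAA_, 99.1% of the counts in the Nutlin table lay at chr1:564879-564950, in a nuclear copy of mitochondrial DNA taken up below. Without the most abundant copy of each name 16 names were called, and without DMSO 12 h replicate 1 there were 18.

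After 24 h of 5-FU 19 tRNA copies rose and 0 fell, 12.3% of those tested, where 4.23% of all repeat copies were called (2.42% higher, 1.82% lower). The median log2 fold change was 0.50, beside 0 over all tested copies. In the cluster 13 of 57 tested copies rose (median 0.69) and elsewhere 6 of 97 (median 0.43). Without overlap between libraries 65 tested tRNA copies lay higher and 13 lower, where 22.3% and 23.1% of all repeat copies did. The calls of 12 h and 24 h had 11 copies in common, each with one direction at both times. That is 57.9% of the 24 h copies and 26.2% of the 12 h copies. No library serves both comparisons, but both came from 1 fit with the same filter and a shared estimate of the spread. The overlap over all repeat copies is not given here.

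The methionine copy tRNA-Met at chr6:26701712-26701787 had the smallest p at 24 h, with 60.0 and 43.4 CPM against 12.9 and 13.2. Its log2 fold change was 1.98 (SE 0.26, edgeR adjusted p = 6.62e-05). At 6 h the same copy had 25.9 and 24.7 CPM against 19.6 and 12.1, which did not pass the test (0.68, adjusted p = 0.59). Drug libraries were above their DMSO libraries at all 3 times.

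The lysine copy tRNA-Lys-AAA at chr1:204475655-204475727 had 33.6 and 31.1 CPM against 11.4 and 8.77 (log2 fold change 1.68, SE 0.27, edgeR adjusted p = 0.00051). The glutamine copy tRNA-Gln-CAA at chr6:27759136-27759206 had 89.4 and 69.4 CPM against 30.7 and 29.8 (1.39, adjusted p = 0.00075). The tyrosine copy tRNA-Tyr-TAC at chr8:67025602-67025694 had 133 and 85.7 CPM against 40.3 and 46.1 (1.34, adjusted p = 0.0011). At 12 h the tyrosine copy had 118 and 97.0 CPM against 43.7 and 43.6, its log2 fold change was 1.30, and against the other DMSO libraries it was 1.20. Its DMSO level at 12 h was within the range of 40.3 to 50.4 CPM of the other DMSO libraries.

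Of the other copies named by p at 24 h, tRNA-Gln-CAG at chr6:27263212-27263283 (1.14), tRNA-Ser-AGY at chr6:26305717-26305798 (1.19) and tRNA-Leu-TTA at chr6:27198334-27198416 (0.95) had also risen at 12 h. Another lysine copy in the cluster, tRNA-Lys-AAA at chr6:28918806-28918878, had 19.2 and 12.7 CPM against 4.12 and 4.65 (1.85, SE 0.36, edgeR adjusted p = 0.0034). The selenocysteine copy tRNA-SeC(e)-TGA at chr19:45981860-45981945, whose product inserts selenocysteine at a stop codon, had 27 and 22 counts against 5 and 1 (3.07, SE 0.70, adjusted p = 0.0129). The cluster copy tRNA-Ala-GCY at chr6:26730737-26730809 had 68 and 61 counts against 0 and 0, at least 23.4-fold higher. Its other libraries were uneven, with 33 and 0 counts after 6 h of 5-FU, 23 and 0 after 12 h and 0 and 10 in DMSO 12 h.

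By name 12 of 56 rose and 0 fell at 24 h, where 8.44% of all repeat names were called (7.05% higher, 1.39% lower). They included tRNA-Lys-AAA (1.33, SE 0.17, edgeR adjusted p = 0.00038), tRNA-Met (1.47, SE 0.19, adjusted p = 0.00038), tRNA-Gln-CAA (1.20), tRNA-Leu-TTA (1.00), tRNA-Gln-CAG (1.05, with 73.2 and 64.0 CPM against 30.3 and 35.4), tRNA-Tyr-TAC (1.02), tRNA-SeC(e)-TGA (3.05) and tRNA-Ala-GCY (1.54). Of the 12 names, 11 were also called at 12 h. The calls depended on single libraries and on the fit. The number of called tRNA names changed with the library left out, as that of all repeat names did. The median log2 fold change of tRNA names was 0.42 without DMSO 24 h replicate 2 and 0.57 without DMSO 24 h replicate 1 (0.06 and 0.01 over all repeat names). It was 0.34 without 5-FU 24 h replicate 1 and 0.65 without 5-FU 24 h replicate 2 (0.13 and -0.03 over all repeat names). For tRNA copies it was 0.19 to 0.70 across these fits, beside -0.09 to 0.02 over all repeat copies. With only the 24 h libraries in the fit 7 copies and 0 names were called, and without the most abundant copy of each name 2 names were.

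**Figure D4:**
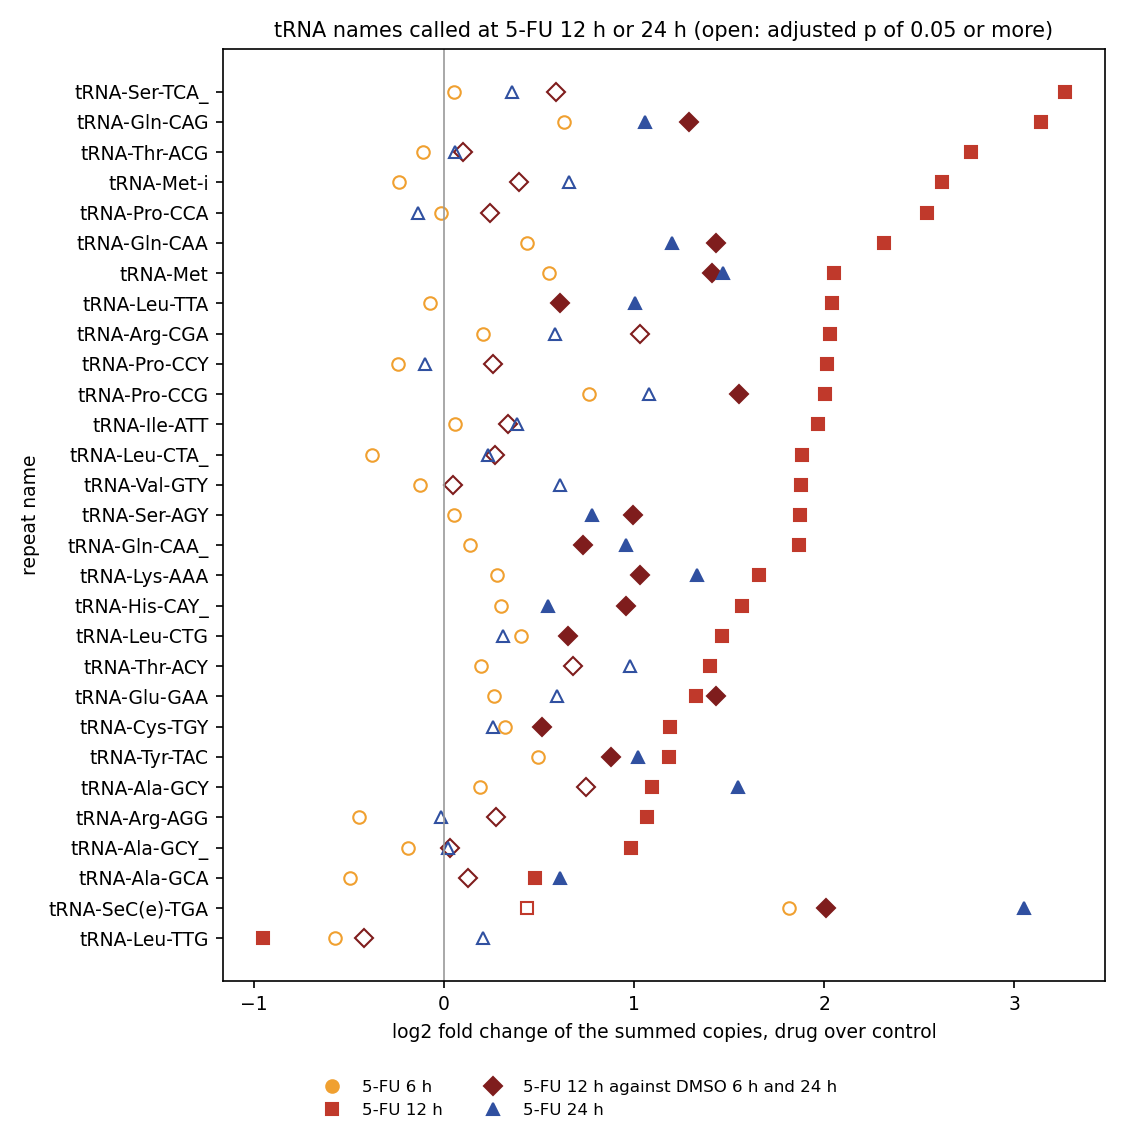
Log2 fold changes (drug over control, edgeR, sums over all copies of a name) of the 29 tRNA names called at 5-FU 12 h or 24 h, ordered by the 12 h value; filled symbols have an adjusted p under 0.05. The 12 h values against DMSO 12 h (squares) lie to the right of those against DMSO 6 h and 24 h (diamonds) for all but a few names, the 6 h values (circles) are all open, and the 24 h values (triangles) lie near the diamonds for tRNA-Gln-CAA, tRNA-Met and tRNA-Tyr-TAC.

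Most of the rise in the sums at 12 h and 24 h lay in near full-length copies. Copies of 65 bases or more held 95.1% of the tRNA counts. Their sum was 1822 and 1907 CPM after 12 h of 5-FU against 761 and 928, and 2221 and 1772 CPM after 24 h against 1322 and 1217. Shorter copies had 84.1 and 79.9 CPM against 71.9 and 72.7 at 12 h, without overlap (log2 ratio 0.18), and 62.8 and 70.6 against 75.6 and 69.2 at 24 h, where the groups overlapped. None of the 11 tested shorter copies was called at either time against its own DMSO. At 12 h 2 of the 11 (18.2%) rose against the DMSO libraries of 6 h and 24 h, beside 28 of 143 longer copies, and the difference between the length groups was not tested.

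With Nutlin the share of tRNA copies called was not above that of all repeats. By edgeR's test 0 tRNA copies rose and 2 fell out of 47 tested (4.26%), both in the cluster, where 9.57% of all repeat copies were called (5.36% higher, 4.21% lower). The median log2 fold change was -0.26, beside 0.01 over all 21328 tested copies. It was -0.47 for the 17 tested cluster copies and 0.04 for the 30 elsewhere, of which none was called. Without overlap between libraries 22 of the 47 lay lower and 5 higher, where 26.7% and 27.1% of all repeat copies did.

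The most abundant copy, tRNA-Ala-GCA at chr6:28770577-28770647, fell to 21.0 and 20.5 CPM from 46.0 and 47.2 in DMSO. Its log2 fold change was -1.17 (SE 0.11, edgeR adjusted p = 5.33e-05), and it passed the test under all 12 alternatives that could be fitted. The untreated library had 59.9 CPM. After 5-FU the same copy was not called at any time, with log2 fold changes of -0.52 at 6 h, 0.48 at 12 h and 0.56 at 24 h (adjusted p = 0.61, 0.16 and 0.15). The serine copy tRNA-Ser-AGY at chr6:26305717-26305798 fell to 3.17 and 2.66 CPM from 5.62 and 6.25 (-1.01, SE 0.27, adjusted p = 0.0327). In both copies the Nutlin libraries were below the DMSO libraries and below the untreated library. The serine copy was called under 7 of 12 alternatives. Its call was lost with DESeq2, with TMM factors from all copies, without the filter, without DMSO replicate 2 and without Nutlin replicate 2, with adjusted p up to 0.21.

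The cluster sum was 79.8 and 81.7 CPM after Nutlin against 119.7 and 129 in DMSO, a log2 ratio of -0.62. Without the most abundant alanine copy the ratio was -0.37. The copies elsewhere summed to 168 and 189.7 CPM against 188.6 and 189.3, and the groups overlapped. Without 2 chromosome 1 copies taken up below, they summed to 138 and 156 CPM against 159 and 162, lower without overlap (log2 ratio -0.13). The cluster held 32.2% and 30.1% of the tRNA counts after Nutlin and 38.7% and 40.7% in DMSO.

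By name, 4 of 46 fell and 1 rose with Nutlin (10.9% called), where 12.2% of all repeat names were called (7.78% higher, 4.38% lower). With library size alone 8 fell and 0 rose, where 188 of all 1028 repeat names fell and 43 rose. The alanine name tRNA-Ala-GCA fell from 47.3 and 48.5 to 21.9 and 22.0 CPM (-1.13, SE 0.12, edgeR adjusted p = 4.32e-08), and 95.9% of its counts lay in the copy above. The names tRNA-Ser-AGY (-0.89, SE 0.20, adjusted p = 0.0034), tRNA-Met (-0.90, SE 0.24, adjusted p = 0.0132) and tRNA-Lys-AAG (-0.51, SE 0.17, adjusted p = 0.0476) fell as well. The most abundant tRNA-Met copy, at chr5:14693593-14693652, held 62.2% of the counts of its name. For tRNA-Lys-AAG the copy at chr3:149458711-149458746 held 36.7%. Both are among the shorter copies and lie outside the cluster. Without them tRNA-Met had -0.84 and tRNA-Lys-AAG -0.59 (edgeR adjusted p = 0.43 and 0.26). The name that rose was tRNA-Gln-CAA_, with 8.37 and 9.30 CPM against 4.75 and 5.84 (0.73, SE 0.24, adjusted p = 0.0425). For each of these 5 names drug and DMSO libraries did not overlap. Without the most abundant copy of each name 0 names were called by edgeR. The call count was 2 without DMSO replicate 2, 1 without Nutlin replicate 1 and 2 without Nutlin replicate 2.

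**Figure D5:**
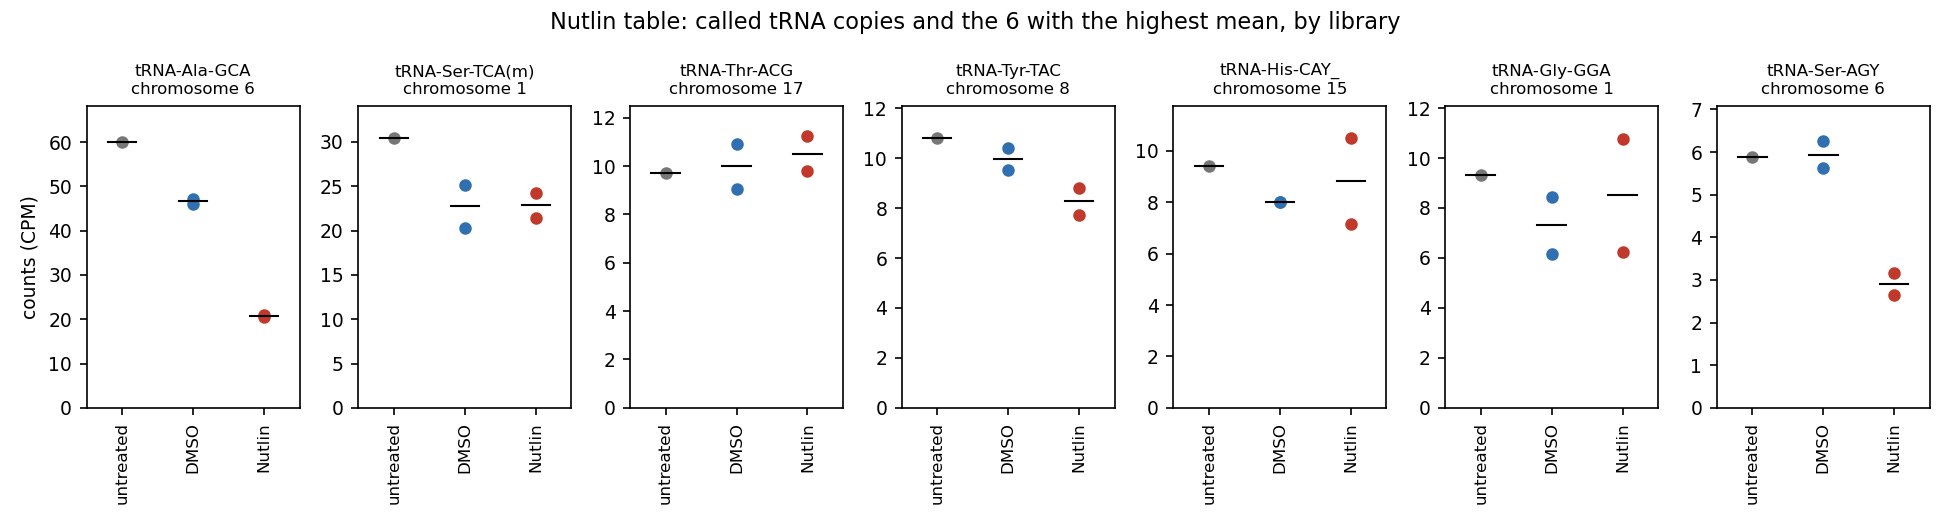
Counts per library (CPM of the TMM-scaled library, each panel with its own linear axis from 0) in the Nutlin table for the 6 tRNA copies with the highest mean and for the called serine copy; points are libraries (1 untreated, 2 DMSO, 2 Nutlin) and bars are means. The alanine copy and the serine copy on chromosome 6 lie lower after Nutlin (20.5 to 21.0 and 2.66 to 3.17 CPM) than in DMSO (46.0 to 47.2 and 5.62 to 6.25 CPM), while the threonine, chromosome 15 histidine, glycine and chromosome 1 serine copies overlap.

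On chromosome 1, 2 tested copies lay in a stretch known as a nuclear copy of mitochondrial DNA, which was singled out after its values were seen. Reads of mitochondrial tRNA and of this stretch cannot be told apart here. The copy tRNA-Gln-CAA_ at chr1:564879-564950 rose after 12 h of 5-FU (28.2 and 28.2 CPM against 7.04 and 8.41, log2 fold change 1.86, edgeR adjusted p = 0.0007) and after 24 h (32.7 and 29.0 against 18.7 and 12.6, 0.98, adjusted p = 0.0422). It holds 99.1% of the counts of the name that rose with Nutlin. The copy tRNA-Ser-TCA(m) at chr1:567999-568065 was not called, and 5-FU 24 h replicate 2 had 1275 counts (197 CPM) there against 409 (94.7 CPM) in replicate 1. Without both copies the sum elsewhere had log2 ratios of 0.97 at 12 h, 0.43 at 24 h and -0.13 with Nutlin. In each of these comparisons drug and DMSO libraries did not overlap.

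Few called copies had a measured neighbour. Of the 42 copies that rose at 12 h, 9 had a tested repeat copy of another kind within 5000 bases. Of these 10 distinct neighbours 4 also rose against DMSO 12 h, where 5.44% of all repeat copies did. These were an AluSz near the isoleucine copy tRNA-Ile-ATT at chr6:27636362-27636436 (log2 fold change 3.65), an AluSc near tRNA-Leu-CTA_ on chromosome 14 (3.29), a MER1A 56 bases from tRNA-Lys-AAA at chr6:28715521-28715593 (1.79), and an AluSg near tRNA-Lys-AAG on chromosome 5 (4.57). Values of the neighbours against the other controls of 12 h are not given here. At 24 h 3 of 19 had such a neighbour, and none of these neighbours passed the test.

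Other transcripts of RNA polymerase III, read by repeat name (5S, U6, 7SK, 7SLRNA, BC200, HY1, HY3, HY4 and HY5), were compared in the same fits. At 6 h of 5-FU none of the 9 passed the test, with log2 fold changes of -0.91 to 0.54. At 12 h 4 of 9 rose and 0 fell against DMSO 12 h, where 35.7% of all repeat names were called (16.9% higher, 18.8% lower). They were BC200 (3.40), 7SK (1.65), HY4 (0.59) and U6 (0.48). Against the DMSO libraries of 6 h and 24 h the 9 names had -0.53 to 2.23. There 4 were called higher and 0 lower, where 16% of all repeat names were higher. Against the untreated libraries 7 of 9 were higher (range over the 9 names 0.27 to 2.08), where 13.1% of all repeat names were. At 24 h 4 of 9 rose and 0 fell, namely BC200 (2.61), HY1 (1.24), HY3 (1.19) and 7SLRNA (0.80). Of all repeat names 8.44% were called there (7.05% higher, 1.39% lower). With Nutlin 1 of 8 tested, 7SK (0.34), rose (12.5%), near the 12.2% of all repeat names. The 2 DMSO 12 h libraries that were low in tRNA were also low in BC200, at 992 and 1096 CPM against 2099 to 2613 in the other DMSO libraries, and high in 7SL RNA. The part of this in the tRNA changes was not tested.

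The tRNA sums of the DMSO 6 h and 24 h libraries (1286 to 1464 CPM) lay above those of the untreated ones (950.2 and 957 CPM) without overlap, and those of DMSO 12 h did not. With the 3 DMSO groups of 5-FU averaged, the DMSO 12 h group included, and set against untreated cells, there were 2 higher and 0 lower of 154 copies by edgeR's test (1.30%), where 1.66% of all repeat copies were called (0.643% higher, 1.02% lower). They were tRNA-His-CAY_ at chr15:45492611-45492682 (log2 fold change 0.93, SE 0.20, adjusted p = 0.0182) and tRNA-Met at chr6:26701712-26701787 (1.16, SE 0.28, adjusted p = 0.0344). With library size alone 2 copies rose and 2 fell, where 389 of all 63602 repeat copies rose and 1614 fell. By name 5 rose and 1 fell, where 14.4% of all repeat names were called (11.2% higher, 3.15% lower). The name that fell was tRNA-Thr-ACG (-0.77), and those that rose were tRNA-Arg-CGY_ (0.97), tRNA-His-CAY_ (0.50), tRNA-Tyr-TAC (0.61), tRNA-Asn-AAC (0.64) and tRNA-Gly-GGG (0.74). In the tRNA-Thr-ACG copy described above, the DMSO 12 h libraries lay far below the untreated ones. The DMSO 6 h and 24 h libraries overlapped the untreated ones there. A fall of this name without the DMSO 12 h group was not tested. Without either untreated library no copy and no name was called. Among names the count was 1 without DMSO 6 h replicate 1, 2 without DMSO 6 h replicate 2 or DMSO 12 h replicate 2, and 0 without DMSO 24 h replicate 2. Among copies it was 1 without any DMSO library other than DMSO 6 h replicate 2.

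Whether the effect of 5-FU differed between 24 h and 6 h was tested as the difference of both effects. By edgeR's test 2 of 154 copies and 2 of 56 names were called, all with the higher effect at 24 h, where 0.385% of all repeat copies (0.0865% higher, 0.299% lower) and 1.21% of all repeat names (0.928% higher, 0.278% lower) were. The copies were tRNA-Ala-GCA at chr6:28726141-28726212 and tRNA-Asn-AAC at chr1:148248115-148248190, and the names were tRNA-Ala-GCA (1.11, SE 0.21, adjusted p = 0.0178) and tRNA-Leu-TTA (1.08, SE 0.23, adjusted p = 0.0422). The calls of copies and names were lost without DMSO 6 h replicate 1, DMSO 24 h replicate 2 or either 5-FU 6 h library. Those of copies were also lost without DMSO 6 h replicate 2 or 5-FU 24 h replicate 1, and those of names without DMSO 24 h replicate 1.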

How the data were processed

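The authors deposited raw counts per annotated repeat copy in 2 tables, 1 for 5-FU (14 libraries) and 1 for Nutlin (6 columns, of which the 2 untreated ones are identical). Per the submitters' processing notes the tools were Trimmomatic 0.32, cutadapt 1.10, Bowtie2, edgeR and DESeq2, on hg19. How reads matching several copies were counted is not given in the sources used here, so near-identical tRNA copies may share or swap reads, and precursor and mature tRNA cannot be told apart. Placement in genes and tRNA sequences were not used here.

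Counts were tested per copy and summed per name with edgeR 4.0.16 (quasi-likelihood) in R 4.3.3 with limma 3.58.1. A feature was tested with about 10 counts in at least 2 libraries and 15 in total. Library sizes came from all copies and TMM factors from the tested copies. Each table had 1 fit with a mean per group, and Benjamini-Hochberg adjustment ran over all repeat copies or names. A call is an adjusted p under 0.05. The SE values were back-calculated as the absolute log2 fold change divided by the square root of the test's F statistic. CPM values are normalized to the TMM-scaled library. Folds against libraries at 0 used a floor of 3 counts per library and cover counting error only. DESeq2 1.42.0, other scalings, no filter, other groups, leaving out libraries, and 5-FU 12 h against other controls were alternatives. The procedure was run on simulated data, whose outcome is not given here. These data held no deviating control group and no reads shared between copies, so they cannot speak to either. Tables used Python 3.11.15 with pandas 2.3.3 and numpy 2.4.6, and plots matplotlib 3.10.9.

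The members and lists were chosen with earlier results of these data known. Named were, per comparison, up to 10 called copies and 8 called names per direction by p, those without overlap preceding, the 6 most abundant copies per table, tested neighbours within 5000 bases, and 9 other RNA polymerase III names. Same-numbered replicates did not deviate together (correlations of -0.087 to 0.11 between groups), so no pairing was used.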

Additional observations from a re-analysis of the deposited data

Results flagged for a closer look

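The effect of 5-FU differed between 6 h and 24 h for 2 tRNA copies and 2 tRNA names, by edgeR's test of the difference itself (1.30% of the tested tRNA copies, where 0.385% of all repeat copies and 1.21% of all repeat names were called). The alanine copy tRNA-Ala-GCA at chr6:28726141-28726212 had 2 and 0 counts after 6 h of 5-FU against 18 and 8 in DMSO, and 62 and 26 after 24 h against 8 and 0. The difference of the log2 fold changes was 7.11 (SE 1.53, adjusted p = 0.0407), a size that depends on the counts at 0. The asparagine copy tRNA-Asn-AAC at chr1:148248115-148248190 had 7.71 and 8.94 CPM after 6 h against 15.6 and 14.5, and 18.1 and 14.1 CPM after 24 h against 7.49 and 7.91, a difference of 1.90 (SE 0.42, adjusted p = 0.0496).

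By name, tRNA-Ala-GCA had 180 and 189 CPM after 6 h against 280 and 241, and 360.0 and 271 after 24 h against 206 and 207, a difference of 1.11 (SE 0.21, edgeR adjusted p = 0.0178). The name tRNA-Leu-TTA had 54.6 and 58.0 CPM after 6 h against 64.7 and 53.9, and 103 and 75.4 after 24 h against 49.1 and 39.7, a difference of 1.08 (SE 0.23, adjusted p = 0.0422). Leaving out single libraries gave 0 to 4 called copies and 0 to 9 called names for this comparison. The most calls came without 5-FU 24 h replicate 2. The median difference was then 0.64 for tRNA names, beside 0.06 over all repeat names, and 0.65 for tRNA copies, beside -0.06. Without 5-FU 24 h replicate 1 it was 0.23 for tRNA names, beside 0.22, and 0.23 for tRNA copies, beside -0.04. In that fit the called share of all repeat names was above that of tRNA names. Without DMSO 6 h replicate 1, DMSO 24 h replicate 2 or either 5-FU 6 h library 0 copies and 0 names were called.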

How the results depend on the processing

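Sums kept their direction under every alternative run, except those of 5-FU 6 h, whose groups overlapped, and that of the Nutlin copies elsewhere without Nutlin replicate 1 (0.01). With library size alone the log2 ratio of the tRNA sum was -0.42 with Nutlin and 0.76 at 12 h; in the cluster it was -0.77 and 1.02, and elsewhere -0.23, 0.54 and, at 24 h, 0.30. With TMM factors from all copies the 12 h ratio was 1.33 over all copies and 1.11 elsewhere. Against the DMSO libraries of 6 h and 24 h the 12 h ratios were 0.50 over all copies, 0.61 in the cluster and 0.40 elsewhere. Without the most abundant copy the Nutlin ratio was -0.16 over all copies and -0.37 in the cluster, and the cluster ratio was 0.17 at 6 h and 1.79 at 12 h.

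Called copies with Nutlin numbered 1 with TMM from all copies and 1 with DESeq2. At 6 h of 5-FU there were 3 without the filter and 1 with only the compared groups in the fit, at 12 h 25 against the untreated libraries, and at 24 h 12 without the filter and 7 with only the compared groups. The difference of 24 h and 6 h gave 1 with TMM from all copies, 0 with only the compared groups and 5 with DESeq2. DMSO against untreated gave 4 with DESeq2's size factors used in edgeR, 4 with library size alone, 1 without the filter, 6 with only the compared groups and 6 with DESeq2.

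Called names with Nutlin numbered 8 with library size alone, 2 with DESeq2 and 0 without the most abundant copies. At 6 h there were 9 with only the compared groups. At 12 h there were 16 against the other DMSO libraries and 16 without the most abundant copies, and at 24 h 0 with only the compared groups and 2 without the most abundant copies. The difference of 24 h and 6 h gave 1 with library size alone, 1 with TMM from all copies, 1 with only the compared groups and 0 without the most abundant copies. DMSO against untreated gave 1, 2, 11 and 2 under the same alternatives. The cause was not tested.

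Leaving out 1 library at a time gave, for copies and names, 1 to 3 and 1 to 4 calls with Nutlin, 0 to 1 and 0 at 6 h, 20 to 32 and 18 to 24 at 12 h, 6 to 23 and 6 to 21 at 24 h, 0 to 4 and 0 to 9 for the difference of 24 h and 6 h, and 0 to 2 and 0 to 5 for DMSO against untreated. At 24 h and for the difference of 24 h and 6 h, the number of called names over all repeats changed with the library left out as well. The left-alone library of a group was assumed to vary like the others. With the replicate number as a block, which the data gave no sign of pairing, Nutlin gave 3 names and the difference of 24 h and 6 h gave 1 copy, and the other counts stayed within 1.5 times. Depth limited the copies: 154 of 871 and 47 of 655 could be tested, and the DMSO 12 h libraries held 2247 and 2617 tRNA counts.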

Other observations

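The untreated library of the Nutlin table and untreated replicate 1 of the 5-FU table held the same count at 226 of the 263 shared tRNA copies with a count in either (85.9%), and their tRNA totals were 3862 and 3797 counts. Their totals over all repeats were 9669973 and 3481300 counts, and 7SL RNA held 5964322 of the former.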
